A study of Mus musculus with 9 samples.

Results

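DNA methylation was examined at 10 germ cell regulators and testis genes, chosen by name: Dazl, Sohlh1, Sohlh2, Stra8, Brdt, Tex101, Slc25a31, Stk31, Tex14 and Dpep3. It was read over all CpGs within 1 kb of the gene start. A start was compared between groups only if each of the 9 libraries held at least 10 read calls there, a read call being 1 read at 1 CpG. Of the 10 genes, 7 passed, among 10242 gene starts that passed in the whole data set. Brdt, Stra8 and Stk31 did not pass and are given as values only, and none of the 10 far gene ends passed.

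The libraries came from Abl.1, a single immortalised B cell clone of a female mouse, an F1 of 129S1/SvImJ x CAST/EiJ. All cells were grown in culture and collected on day 2, after dead cells had been removed by density centrifugation. The control group received 1% DMSO, the solvent, and 2 libraries were made from it. The treated groups received 5-aza-2'-deoxycytidine (5-aza-dC), a cytidine analogue that is built into replicating DNA and traps DNA methyltransferases, with 2 libraries at the low dose of 0.2 µM, 3 at the middle dose of 2 µM and 2 at the high dose of 10 µM. Reduced representation bisulfite sequencing (RRBS) read mostly CpG-rich fragments, and each library held 1531189 to 2053468 CpGs with 8590777 to 16495423 read calls. Replicates are library preparations according to the labels, and separate cultures are not named, so p-values measure the spread between libraries, which may be technical. The maternal and paternal alleles of this hybrid were not separated, so a level is a mean over both alleles and over all cells.

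Genes of this kind are active in germ cells and silent in other tissues. Many of them have CpG-dense promoters that acquire DNA methylation around implantation and keep it in somatic cells, which sets them apart from most CpG-dense promoters, and they are a common readout of lost methylation. Their repression is also tied to E2F6 and MGA with MAX, factors that recognise E2F sites and E-boxes in such promoters.

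Most of the 10 members had CpG-dense promoters. Over the 300 bases from 250 before to 50 after the RefSeq start site (GRCm38.p6, the assembly of the mm10 build), they held 3.33 to 9.67 CpGs per 100 bases with a median of 6.5, against a median of 4.33 over the 17492 mouse promoters with a RefSeq sequence. Stk31 with 9.67 and Dazl with 9.33 were the densest, followed by Brdt with 7.67, Slc25a31 with 7.33, Tex14 with 6.67, Tex101 with 6.33, Sohlh2 with 5.67, Sohlh1 with 4.67, Dpep3 with 4 and Stra8 with 3.33, the last pair below the median of all promoters. The stretches read by RRBS differed between the members. In Tex101, Sohlh2 and Slc25a31 some CpGs of the 250 bases before the start site were read in every library, and these stretches (RefSeq, GRCm38.p6) are shown because their levels belong to the promoter itself. Capitals mark the CpGs read in all 9 libraries, 9 of 14 in Tex101, 6 of 14 in Sohlh2 and 2 of 18 in Slc25a31. Tex101 is chr7:24672051-24672300 on the minus strand, Sohlh2 is chr3:55181794-55182043 on the plus strand and Slc25a31 is chr3:40708621-40708870 on the plus strand.
Tex101: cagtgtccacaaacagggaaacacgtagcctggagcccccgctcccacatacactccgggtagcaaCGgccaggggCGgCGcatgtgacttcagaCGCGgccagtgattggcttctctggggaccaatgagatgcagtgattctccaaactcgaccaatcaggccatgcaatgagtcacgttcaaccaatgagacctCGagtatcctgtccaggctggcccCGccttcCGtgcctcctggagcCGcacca
Sohlh2: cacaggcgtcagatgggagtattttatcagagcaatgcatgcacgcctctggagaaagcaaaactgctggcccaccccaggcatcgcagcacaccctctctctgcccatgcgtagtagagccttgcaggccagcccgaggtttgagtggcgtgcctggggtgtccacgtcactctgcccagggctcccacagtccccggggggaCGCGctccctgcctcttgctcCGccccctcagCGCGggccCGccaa
Slc25a31: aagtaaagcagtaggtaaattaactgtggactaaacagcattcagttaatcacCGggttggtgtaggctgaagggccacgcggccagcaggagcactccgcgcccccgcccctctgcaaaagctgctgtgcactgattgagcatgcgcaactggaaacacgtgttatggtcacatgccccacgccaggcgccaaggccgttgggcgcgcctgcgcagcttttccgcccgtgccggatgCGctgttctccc

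In the other members no CpG of these 250 bases was read in every library. In Dazl, 0 of its 20 upstream CpGs were read in any library. Levels for Dazl, Sohlh1, Tex14 and Dpep3 therefore came mainly from CpGs inside the gene, close to its start.

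The E-box letters CACGTG (a palindrome, so both strands were covered) were found in the 300-base promoters of Sohlh1, Brdt, Slc25a31 and Stk31, and in 7.91% of all 17492 promoters. Sohlh1 held 3 copies, and its 250 upstream bases (chr2:25847249-25847498, minus strand) are shown with Brdt (chr5:107330944-107331193, plus strand), which held 1, capitals marking CACGTG. The E2F letters TCCCGC, searched on both strands, were present in Slc25a31 and Tex14 and in 25.8% of all promoters. CCGG, the site cut by the enzyme MspI in RRBS, was absent from the 300 bases of Stra8 and Dpep3, and 61.8% of all promoters held it. A match is a run of letters only.
Sohlh1: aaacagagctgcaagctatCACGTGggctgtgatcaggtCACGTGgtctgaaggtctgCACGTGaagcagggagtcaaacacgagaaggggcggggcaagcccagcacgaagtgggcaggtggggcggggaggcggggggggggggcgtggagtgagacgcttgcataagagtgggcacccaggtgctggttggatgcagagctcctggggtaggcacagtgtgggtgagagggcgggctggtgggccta
Brdt: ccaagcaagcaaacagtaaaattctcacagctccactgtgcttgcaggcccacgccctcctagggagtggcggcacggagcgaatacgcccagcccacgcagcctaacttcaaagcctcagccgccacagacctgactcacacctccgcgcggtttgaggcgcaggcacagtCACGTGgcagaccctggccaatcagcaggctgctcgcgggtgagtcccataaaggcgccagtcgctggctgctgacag

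In DMSO all 7 starts were highly methylated, and all 7 lost methylation at 0.2 and at 2 µM 5-aza-dC. Taken as the median over the 7 starts in each library, the level was 91.9% ± 0.867 (SD, n = 2) in DMSO, 58.1% ± 4.40 (n = 2) at the low dose, 56.4% ± 4.60 (n = 3) at the middle dose and 73.8% ± 0.981 (n = 2) at the high dose. The median was higher in each library of the high dose than in any library of the lower doses, and it is given without a test. Over all tested starts, most of which were unmethylated in DMSO, the median of the changes from DMSO was -0.410 points for the low dose, -0.179 for the middle dose and -0.102 for the high dose.

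By the window test, all 7 starts fell at 0.2 µM, where 32.5% of the 15644 gene ends tested and 23.2% of the 10242 starts were called lower. All 7 also fell at 2 µM, against 24.1% of gene ends and 16.6% of starts. At 10 µM, 2 of the 7 (Dazl and Sohlh2) fell, against 5.4% of gene ends and 4.13% of starts, while all 7 had means below DMSO and libraries that did not overlap it. Over all starts, 57.0% had a lower mean at 10 µM than in DMSO, and 27.5% were lower without overlap. These shares cover starts at all levels, most of which had little methylation to lose. Among 504 starts with 80% or more in DMSO and 4 or more CpGs per 100 bases, the density class of all 7 members, the share called lower was 95.8% for the low dose, 95.8% for the middle dose and 49.8% for the high dose. Nearly all starts of this kind were thus called at the lower doses, as the members were. The 3 comparisons share the same 2 DMSO libraries.

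**Figure D1:**
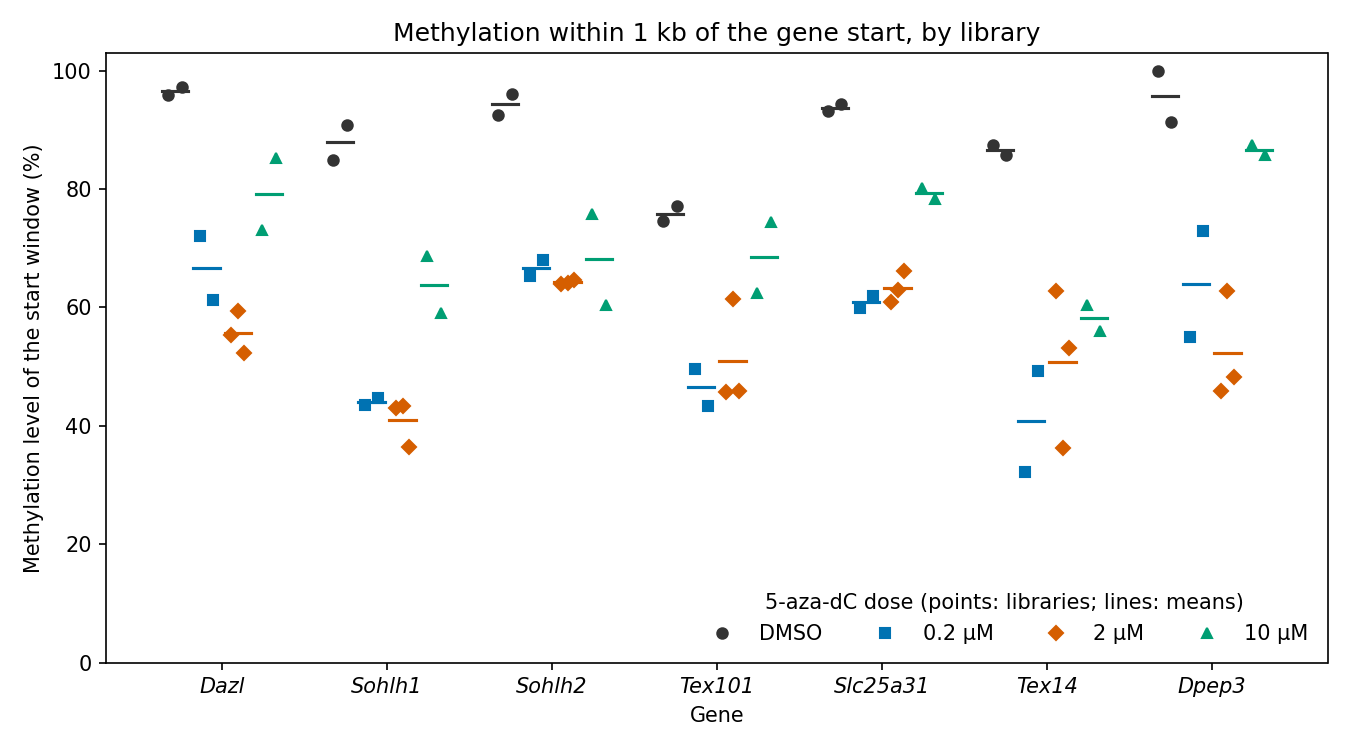
Methylation level (percent of read calls, vertical axis) within 1 kb of the start of the 7 genes that passed the coverage rule, with 1 point per library and a line at each group mean. Each DMSO library sits above every treated library of the same gene, and the 10 µM means lie above the 0.2 and 2 µM means at every gene.

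Dazl encodes an RNA-binding protein that germ cells need for their development. Its start window (chr17:50292620-50294620, minus strand, no other gene within it) had the deepest coverage of the members, 220 to 550 read calls per library, at 37 CpGs read in every library. The level was 95.9% and 97.3% in the DMSO libraries, 72.1% and 61.2% at the low dose, 55.4%, 59.5% and 52.4% at the middle dose, and 73.1% and 85.3% at the high dose. The 2 µM libraries were the lowest, the DMSO libraries the highest, and no group overlapped DMSO. Dazl fell by 29.9 points at the low dose (SE 5.11, adjusted p = 9.24e-06), by 40.8 points at the middle dose (SE 4.66, adjusted p = 2.93e-07) and by 17.4 points at the high dose (SE 5.11, adjusted p = 0.00383), the p-values coming from a binomial window model with limma-moderated dispersion and Benjamini-Hochberg adjustment over 15644 gene ends, and the standard errors (SE) from limma on the levels. It was higher at 10 µM than at 2 µM by 23.4 points (adjusted p = 0.0107).

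Sohlh2 and Sohlh1 are basic helix-loop-helix transcription factors of spermatogonia and early oocytes that act as partners. Sohlh2 (chr3:55181044-55183044, 77 to 339 read calls) read 92.5% and 96.1% in DMSO, 65.4% and 68.1% at the low dose, 64.0%, 64.2% and 64.7% at the middle dose, and 75.8% and 60.5% at the high dose. Its 2 µM libraries lay within 1 point of each other, while the 10 µM libraries lay on either side of both lower doses. Sohlh2 fell by 27.6 points at the low dose (SE 4.60, adjusted p = 0.000795), by 30.0 points at the middle dose (SE 4.20, adjusted p = 0.000351) and by 26.2 points at the high dose (SE 4.60, adjusted p = 0.0101).

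Sohlh1 (chr2:25846248-25848248, minus strand) rested on only 20 and 22 read calls in DMSO and 47 to 90 in the treated libraries, at 5 CpGs read in every library. It read 85.0% and 90.9% in DMSO, 43.5% and 44.7% at the low dose, 43.1%, 43.3% and 36.4% at the middle dose, and 68.8% and 59.0% at the high dose. The 3 ranges of treated libraries did not overlap DMSO, and the 10 µM libraries lay above all libraries of the lower doses. Sohlh1 fell by 43.8 points at 0.2 µM (adjusted p = 0.0045) and fell by 47.0 points at 2 µM (adjusted p = 0.00209), the largest among the 7 at 2 µM. At 10 µM the difference from DMSO was -24.1 points, which did not pass (adjusted p = 0.246).

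Stra8, the retinoic-acid-induced gene that starts meiosis, had too few reads at its start for a level. Its start window held 6 read calls, all methylated and all in 1 library at 10 µM, and the annotated gene end used there lies 785 bp from the RefSeq start site. Over CpGs inside the gene and more than 1 kb from its ends, Stra8 read 91.0% ± 1.88 (SD, n = 2) in DMSO, 29.9% ± 8.19 (n = 2) at the low dose, 41.5% ± 45.6 (n = 3) at the middle dose and 79.3% ± 4.43 (n = 2) at the high dose, on 26 or more read calls in each library. The libraries of the middle dose were far apart. No test was made on gene bodies.

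Brdt encodes the testis-specific bromodomain protein that reads acetylated histones in spermatids, and it lay just outside the coverage rule, with 8 read calls in DMSO replicate 2. Its start (chr5:107330116-107332116) read 100% of 16 calls (95% Wilson interval 80.6% to 100%) and 87.5% of 8 (52.9% to 97.8%) in DMSO, 44.7% and 46.7% at the low dose, 74.1%, 39.3% and 38.9% at the middle dose, and 78.3% and 80% at the high dose. The group means were 93.8% in DMSO, 79.1% at the high dose, 50.7% at the middle dose and 45.7% at the low dose, and 1 of the 3 libraries at the middle dose stood well above the other two. Just inside the rule was Sohlh1, whose lowest library held 20 calls.

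Among the genes of later spermatogenesis, Slc25a31 encodes the ADP/ATP carrier of male germ cell mitochondria. It read 93.1% and 94.4% in DMSO, 59.9% and 61.9% at the low dose, 60.9%, 62.9% and 66.1% at the middle dose, and 80.2% and 78.4% at the high dose (chr3:40707871-40709871, 89 to 307 read calls). Libraries of 1 group lay close together, and the lower doses overlapped each other but neither DMSO nor 10 µM. Slc25a31 fell by 32.9 points at 0.2 µM (SE 1.85, adjusted p = 0.000298) and by 30.5 points at 2 µM (SE 1.69, adjusted p = 0.000465). At 10 µM the difference was -14.5 points, and the count-based test did not call it (adjusted p = 0.154), although limma on the levels themselves did (adjusted p = 0.0189, range over its 19 alternatives 0.0189 to 0.532).

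Tex101 and Dpep3 encode glycosylphosphatidylinositol-anchored proteins of testicular germ cells that are found in a complex. Tex101 (chr7:24671050-24673050, minus strand, 48 to 210 read calls) read 74.6% and 77.1% in DMSO, 49.7% and 43.4% at the low dose, 45.7%, 61.4% and 45.9% at the middle dose, and 62.5% and 74.5% at the high dose. It had the lowest DMSO level of the 7, and its upper 10 µM library came within 1 point of the lower DMSO library. Tex101 fell by 29.3 points at the low dose (adjusted p = 0.00765) and by 24.9 points at the middle dose (adjusted p = 0.0203), and its difference from DMSO at the high dose was -7.36 points (adjusted p = 1).

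Dpep3, a member of the membrane dipeptidase family, read 100% and 91.3% in DMSO, 55% and 72.9% at the low dose, 45.8%, 62.8% and 48.3% at the middle dose, and 87.5% and 85.7% at the high dose (chr8:105978419-105980419, minus strand, 23 to 56 read calls). The 2 µM and 0.2 µM libraries overlapped, while the 10 µM libraries stood clear of both and below DMSO. Dpep3 fell by 31.7 points at 0.2 µM (adjusted p = 0.0136) and fell by 43.4 points at 2 µM (adjusted p = 0.00263). The 10 µM mean differed from DMSO by -9.05 points (adjusted p = 0.843) and lay 34.3 points above 2 µM (adjusted p = 0.0573), the widest gap between these doses among the 7.

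Tex14 encodes a kinase-like protein that keeps the intercellular bridges between germ cells open. Its start window (chr11:87404013-87406013) also takes in the DNA repair gene Rad51c, and every library had 21 to 113 read calls. The level was 87.5% and 85.7% in DMSO, 32.3% and 49.2% at the low dose, 62.9%, 36.3% and 53.1% at the middle dose, and 60.4% and 56.0% at the high dose. The 2 µM libraries were widely spread and overlapped both other doses, while no treated library reached DMSO. Tex14 fell by 45.9 points at the low dose (adjusted p = 0.00237) and by 35.9 points at the middle dose (adjusted p = 0.00825), and the difference at the high dose was -28.4 points (adjusted p = 0.171).

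Stk31, a Tudor-domain protein with a kinase domain, had the densest promoter of the 10 and almost no reads at its start. Only 2 libraries, both at 2 µM, held any, with 6.67% of 15 calls methylated in replicate 2 (95% Wilson interval 1.19% to 29.8%) and 87.5% of 16 in replicate 3 (64.0% to 96.5%). These values cannot be set against a control.

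With 2 DMSO libraries in all, leaving out 1 of them ended several calls, the remaining library then being assumed to vary like those of the other groups. At 0.2 µM, Sohlh1 lost its call without DMSO replicate 2 (adjusted p = 0.0626, range over 19 alternatives 0.000956 to 0.0626). Tex101 lost it without DMSO replicate 1 (0.0504), DMSO replicate 2 (0.0531) or 0.2 µM replicate 2 (0.0586, range of adjusted p 0.00619 to 0.0586), and Dpep3 without DMSO replicate 1 (0.177) or 0.2 µM replicate 1 (0.126, range 0.0112 to 0.177). At 2 µM the count fell from 7 to 4 without either DMSO library: Tex101 (0.118 and 0.130) and Tex14 (0.105 and 0.0546) lost their call in both cases, Dpep3 without replicate 1 (0.0725) and Sohlh1 without replicate 2 (0.0511). Tex101 also lost it without 2 µM replicate 1 (0.0561) or replicate 3 (0.0623). At 10 µM, Dazl lost its call without DMSO replicate 1 (0.0535), DMSO replicate 2 (0.0685) or 10 µM replicate 1 (0.116, range 0.00211 to 1), and Sohlh2 without DMSO replicate 1 (0.0988), DMSO replicate 2 (0.120) or 10 µM replicate 2 (0.122, range 0.00344 to 0.737). Every one of these changes kept its direction, and the calls of Dazl, Sohlh2 and Slc25a31 at 0.2 and 2 µM held in each leave-one-out fit.

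Other settings ended further calls. Within 250 bp of the start 6 members were left, without Dpep3, and 4 of them fell at 0.2 µM and 4 at 2 µM. Sohlh2 lost its call there at 0.2 µM (adjusted p = 0.0558, range 0.000182 to 0.0558) and 2 µM (0.0717, range 7.19e-05 to 0.0717), as did Tex14 (0.181, range 0.00167 to 0.181, and 0.614, range 0.00534 to 0.614). Dpep3 lost its call at 0.2 µM with unweighted CpG means (0.0607), and Tex101 at 2 µM without the scaling of calls (0.0526). At 10 µM limma on the levels called Sohlh1 (0.0404), Sohlh2 (0.0399) and Slc25a31 (0.0189) and did not call Dazl (0.140).

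Among the doses themselves, 0.2 µM and 2 µM were not separated by the test at any member. No start was called either way, against 0.428% of gene ends called lower and 3.79% called higher at 2 µM. By the binomial test 1 start, Dazl, had an unadjusted p under 0.05 (0.0377, a difference of -10.9 points, adjusted p = 0.239), and limma on the levels also called 0. Means at 2 µM were lower in 4 of the 7 (Dazl, Sohlh1, Sohlh2 and Dpep3) and higher in 3 (Tex101, Slc25a31 and Tex14), from -11.7 points in Dpep3 to +10.0 in Tex14, with a median of -2.44 points. In Dazl, Sohlh1 and Sohlh2 the 2 µM libraries all lay below those of 0.2 µM, as they did in 7.42% of all starts. The nearest libraries of these doses read 43.3% and 43.5% in Sohlh1, and 64.7% and 65.4% in Sohlh2. The 7.42% covers mostly unmethylated starts. Of the 504 starts with 80% or more in DMSO and 4 or more CpGs per 100 bases, 61.9% had a lower mean at 2 µM.

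Methylation at 10 µM was above both lower doses in the mean of all 7 members. Against 2 µM, the difference ran from 3.87 points in Sohlh2 to 34.3 in Dpep3, with a median of 17.5 points, and 1 start (Dazl) passed, against 4.34% of gene ends called higher. Libraries of these doses did not overlap in 5 of the 7, Sohlh2 and Tex14 being the exceptions, and in 25.1% of all starts they were higher without overlap. This share, too, covers mostly unmethylated starts. The Dazl call was lost without 10 µM replicate 2 (adjusted p = 0.160, range over 19 alternatives 0.00599 to 0.160), and without 2 µM replicate 2 Dpep3 passed too (0.0471). Against 0.2 µM the difference ran from 1.42 points in Sohlh2 to 22.6 in Dpep3, with a median of 18.4 points. None of the 7 passed after adjustment by the binomial test, 4 had an unadjusted p under 0.05, and limma on the levels called 2 (Sohlh1 and Slc25a31), against 20.3% of gene ends called higher. Leaving out 10 µM replicate 1 brought Dazl past the threshold (0.0404, range 0.0127 to 0.695), and leaving out 2 µM replicate 2 brought Tex101 past it (0.0466, range 0.0428 to 0.498).

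The number of read calls at the members moved with treatment. Per 1000000 calls of the library, the 7 starts together held 53.1 to 60.4 in DMSO, 77.4 to 83.5 at the low dose, 84.6 to 102 at the middle dose and 87.7 to 91.5 at the high dose. The 871 starts at 80% or above in DMSO showed the same order between DMSO and the treated groups, with 8834 to 10243 calls per 1000000 in DMSO and 13342 to 16297 in the treated libraries. The part of this shift in the levels was not tested.

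Methylation was next read by distance from the start in the members with enough coverage. In Dazl, over all CpGs read, the mean at 10 µM was close to that of DMSO near the start and below it farther out. From 0 to 249 bp inside the gene, the means were 95.8% in DMSO, 58.5% at the low dose, 57.2% at the middle dose and 91.6% ± 9.94 (SD, n = 2) at the high dose. The libraries of the high dose read 84.6% and 98.6% there, on either side of the DMSO libraries with 94.2% and 97.4%. Only 10 of the 25 CpGs there were read in every library, so these means do not compare the same CpGs. At those 10, pooled by group, levels ran from 87.5% to 100% in DMSO and from 73.3% to 100% at the high dose. At the middle dose they ran from 54.5% to 69.7%. The high dose was below DMSO at each of the 10 except the CpG at 124 bp, where both read 100%. From 500 to 1000 bp the means were 96.4%, 68.9%, 51.6% and 69.8%. From -1000 to -251 bp, before the start, they were 100%, 50.6%, 56.4% and 75.6%. With the window cut to 500 bp, the difference between 10 µM and DMSO at Dazl was -5.50 points (adjusted p = 0.855), and with 250 bp -4.23 points (adjusted p = 1), against the call over the full 1 kb (range of adjusted p over 19 alternatives 0.00211 to 1).

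Sohlh2 was read over the same stretches. Its 250 to 499 bp stretch, with the most calls, read 95.1% ± 6.99 (SD, n = 2) in DMSO, 66.8% ± 6.02 (n = 2) at the low dose, 58.2% ± 5.06 (n = 3) at the middle dose and 60.7% ± 14.4 (n = 2) at the high dose. Between 0 and 249 bp the means were 94.2% ± 8.16 in DMSO and 83.2% ± 3.58 at the high dose. Those of the low and middle doses were 59.3% ± 18.3 and 66.1% ± 9.25. Only 3 of the 8 CpGs there were read in every library, and the thinnest DMSO library held 7 calls. From 500 to 1000 bp the means were 91.3% ± 2.62, 58.2% ± 9.37, 76.1% ± 13.4 and 81.6% ± 9.36 from DMSO to the high dose. In the 250 bases before the start the means of the 3 treated groups were 77.4% ± 7.34, 76.3% ± 15.6 and 76.8% ± 14.3. Libraries of the middle dose ran from 63.2% to 93.5% there, so these means do not show equal levels. Only 6 of the 11 CpGs in that stretch were read in every library.

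The promoters of Slc25a31 and Tex101 could be read on both sides of the start. In the 250 bases before the Slc25a31 start, the sequence shown above, the level was 96.4% ± 5.05 in DMSO, 65.5% ± 1.16 at the low dose, 74.8% ± 7.17 at the middle dose and 91.6% ± 6.50 at the high dose. In the same stretch of Tex101 it was 85.7% ± 13.1, 46.9% ± 12.9, 54.0% ± 18.4 and 80.6% ± 1.77. In both, over all CpGs read, the 10 µM mean stood nearer to DMSO than to the lower doses in this stretch, on at least 10 calls per library in Slc25a31 and 17 in Tex101. In Tex101, 9 of the 11 CpGs were read in every library, but in Slc25a31 only 2 of 18, so its groups were not compared at the same CpGs. Pooled by group from DMSO to the high dose, those 2 read 100%, 54.5%, 53.3% and 66.7% (-12 bp) and 50%, 54.5%, 48% and 83.3% (-197 bp). They had 3 to 25 calls per group. No test was made on single stretches.

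**Figure D2:**
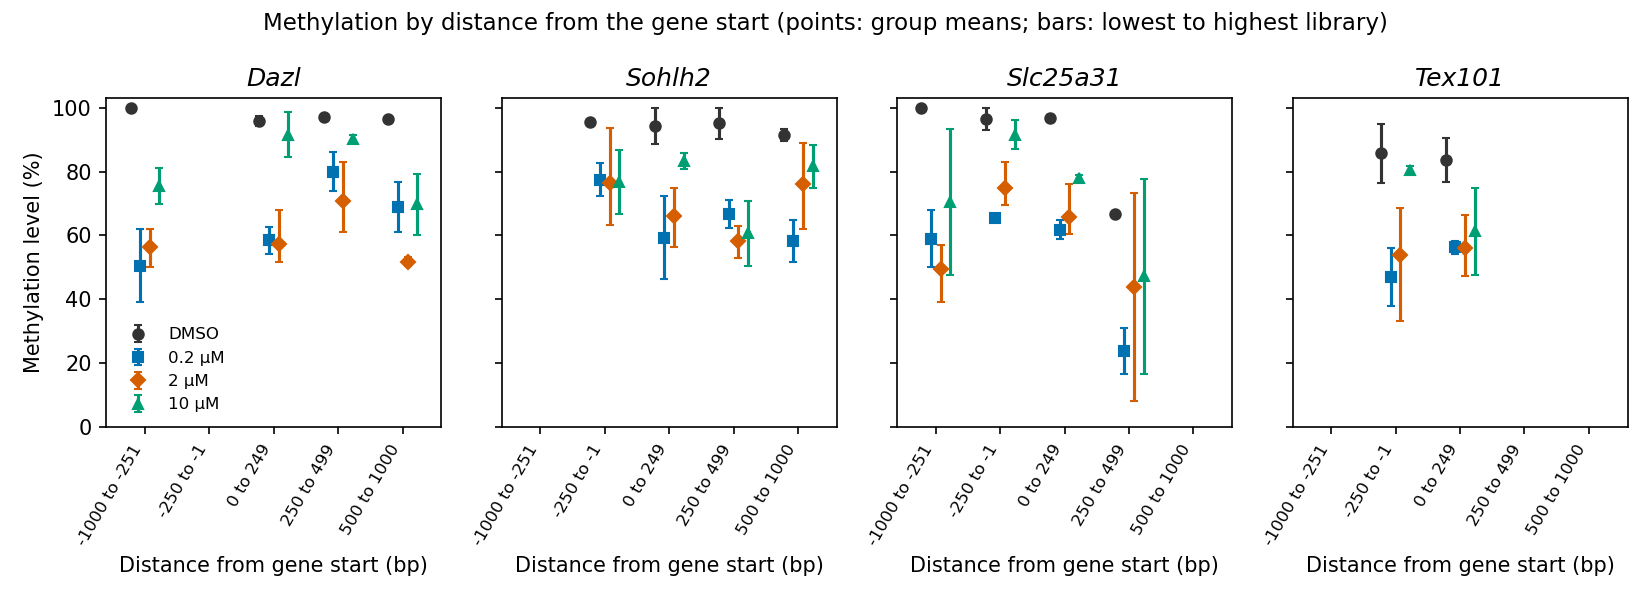
Methylation level (percent, vertical axis) by distance from the gene start in bp, positive inside the gene, for the 4 members with the most reads, with points at group means and bars from the lowest to the highest library. In Dazl the 10 µM mean was 91.6% from 0 to 249 bp and 69.8% from 500 to 1000 bp. These means cover all CpGs read, which were not all the same between groups. Stretches with fewer than 5 calls in any library have no point.

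Single CpGs were too thinly read for a level per library, since none at these starts had 10 calls in every library, so they were pooled by group. Over 125 CpGs of 8 members (Brdt included) with a read in every library, 110 were at 80% or above in DMSO, 24 at the low dose, 11 at the middle dose and 50 at the high dose. Of the 125, 119 were below DMSO at the low dose, 121 at the middle dose and 99 at the high dose. The order of the lower doses was close to even, with 67 CpGs lower and 58 higher at the middle dose than at the low dose, while 107 were higher at the high dose than at the middle dose. In Dazl, 20 of 37 CpGs were lower at the middle dose than at the low dose and 35 of 37 were higher at the high dose than at the middle dose. All 5 CpGs of Sohlh1 and all 5 of Dpep3 were higher at the high dose than at the middle dose, and all 5 of Dpep3 were also lower at the middle dose than at the low dose. Neighbouring CpGs share reads and are not replicates.

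Because the 7 members were methylated and fell in the class of 4 or more CpGs per 100 bases, their levels were set beside those of starts at 80% or above in DMSO, of which there were 871, 6 of the members among them. At starts with under 2 CpGs per 100 bases (163), the median level was 89.7% in DMSO, 32.3% at the low dose, 51.4% at the middle dose and 70.9% at the high dose. From 2 to under 4 CpGs (204 starts) it was 90.5%, 37.4%, 52.0% and 70.8%. At 4 or more CpGs (504 starts) it was 89.6%, 59.2%, 53.6% and 69.5%, and the medians of the 7 members were 93.8%, 60.9%, 52.3% and 68.5%. The median of the members thus lay near that of methylated starts of their own density in each group, but single members lay well away from it. For 0.2 µM, Tex14 with 40.7%, Sohlh1 with 44.1% and Tex101 with 46.5% were below the class median, and for 10 µM Dpep3 with 86.6% was above it and Tex14 with 58.2% below.

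The order of 0.2 and 2 µM differed between the density classes. The level was lower at 2 µM than at 0.2 µM in 18.4% of methylated starts with under 2 CpGs per 100 bases, in 25% of those with 2 to under 4 and in 61.9% (312 of 504) of those with 4 or more. The median difference was 18.1, 14.0 and -4.34 points in that order. Among the members it was lower in 4 of 7 (57.1%), with a median of -2.44 points. Within the 7, Dazl had the highest density and a difference of -10.9 points, but Dpep3, with the lowest density, had -11.7, so the difference did not follow density inside the group. The difference between density classes was not tested.

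**Figure D3:**
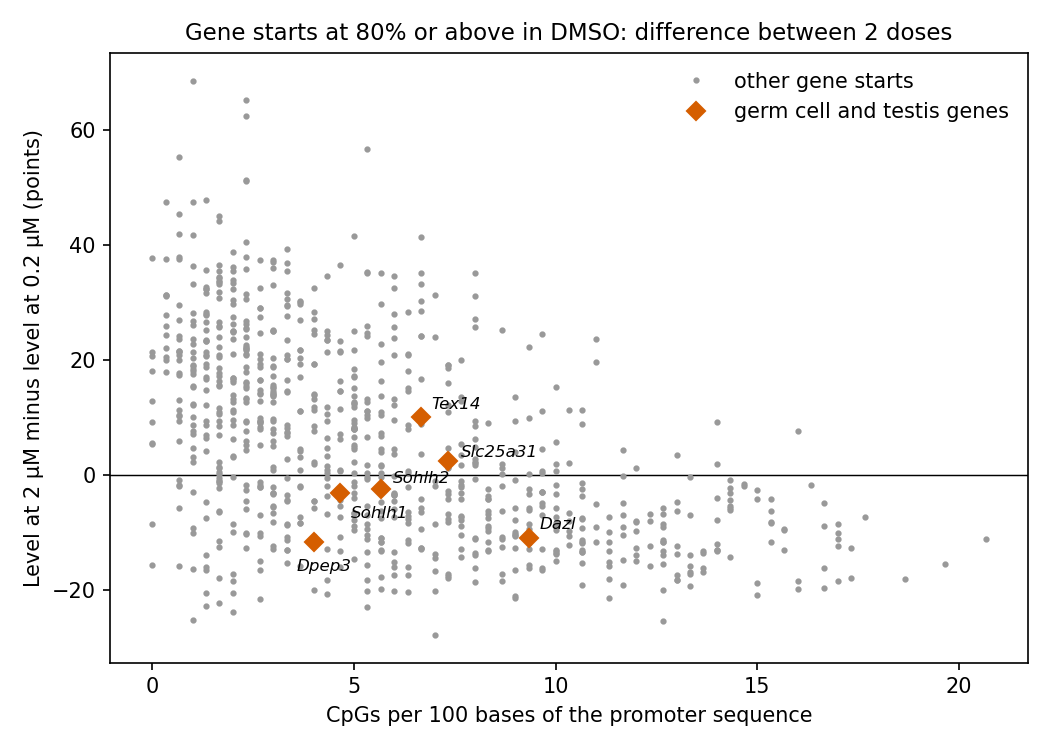
Level at 2 µM minus level at 0.2 µM (percentage points, vertical axis) against CpGs per 100 bases of the promoter (horizontal axis) for gene starts at 80% or above in DMSO, 1 point per gene, with the 6 members at or above that level as diamonds. Sparse promoters lie mostly above 0 and dense promoters mostly below it, and the members lie on both sides of 0. Tex101, at 75.9% in DMSO, is not drawn.

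Away from their ends, few members had reads. The body of Sohlh2 (14 CpGs more than 1 kb from either end) read 81.2% ± 13.8 (SD, n = 2) in DMSO, 28.1% ± 4.32 (n = 2) at the low dose, 47.7% ± 11.1 (n = 3) at the middle dose and 65.6% ± 11.5 (n = 2) at the high dose. At its start the same groups read 94.3%, 66.7%, 64.3% and 68.2%. Tex14 was different, with a body level of 12.0% ± 0.655 in DMSO, 5.79% ± 0.251 at the low dose, 15.4% ± 2.51 at the middle dose and 14.2% ± 2.36 at the high dose over 249 CpGs, against 86.6% at its start in DMSO. That stretch also holds other annotated genes, several of them small RNA genes (Rnu1a1, Rnu3b1 and others), so it is not a level of Tex14 alone. Brdt read 26.0% ± 5.31, 20.5% ± 5.81, 34.0% ± 7.78 and 51.9% ± 32.7 over 50 CpGs, likewise with other annotated genes inside. Stk31 had 4 to 22 pooled calls per group in its body, too few for a comparison.

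Other germline genes were read from lists of related function, by the same test. Beside the counts below stand the shares of all 10242 starts called lower, 23.2%, 16.6% and 4.13% from the low to the high dose. Among the 504 starts at 80% or above in DMSO with 4 or more CpGs per 100 bases, the shares were 95.8%, 95.8% and 49.8%. Not every listed start belonged to that class. Of 18 further germ cell regulators 7 were tested, and 7 fell at the low dose, 7 at the middle dose and 4 at the high dose, with medians of 91.0% in DMSO, 48.9% at the low dose, 48.9% at the middle dose and 56.5% at the high dose. Ddx4, the Vasa RNA helicase, had the largest change at the middle dose, from 97.6% ± 0.591 in DMSO to 75.4% ± 1.15 at the low dose, 49.9% ± 13.6 at the middle dose and 77.4% ± 2.14 at the high dose. It was the single germline start in these lists called lower at 2 µM than at 0.2 µM, with -25.5 points (limma-moderated binomial test, adjusted p = 0.0313), and limma on the levels called 0 of the 7. Nobox, an oocyte homeobox factor, followed and fell by 43.1 points at 2 µM (adjusted p = 0.00128). The smallest changes were those of Lhx8, another oocyte homeobox factor, at -25.1 points (adjusted p = 0.000748), and of Ddx25, a helicase of round spermatids, at -14.7 points (adjusted p = 0.0417).

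Of 15 meiosis genes 9 were tested, 8 of them at 80% or above in DMSO, and 9 fell at the low dose, 9 at the middle dose and 6 at the high dose, with medians of 92.4%, 53.6%, 52.7% and 64.6%. Sycp1, of the synaptonemal complex, went from 94.6% in DMSO to 68.2% at 0.2 µM and 48.1% at 2 µM, and so fell by 46.5 points at 2 µM (adjusted p = 8.25e-06), and Dmc1, the meiotic recombinase, fell by 41.2 points (adjusted p = 0.000168). Smc1b, a meiotic cohesin, and Mei1 changed least, by -29.3 (adjusted p = 0.00477) and -24.0 points (adjusted p = 0.0074).

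Genes of the piRNA pathway, which silences transposons in germ cells, had 7 of 13 starts tested, and 6 fell at the low dose, 6 at the middle dose and 1 at the high dose. Their medians were 87.2%, 57.1%, 50.3% and 70.5%. Mael fell by 43.1 points (adjusted p = 5.87e-05) and the Tudor gene Tdrd1 fell by 42.7 points (adjusted p = 3.92e-05) at 2 µM, while the piRNA methyltransferase Henmt1 fell by 20.7 points (adjusted p = 0.0323). Tdrd9 differed from DMSO by -29.1 points at 2 µM without passing (adjusted p = 0.178), at 80.5% ± 14.8 in DMSO and 51.4% ± 16.5 at 2 µM.

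Further testis genes were less well covered. Only 4 of 18 starts were tested, of which 3 fell at the low dose, 2 at the middle dose and 0 at the high dose by the binomial test (1 with an unadjusted p under 0.05, and 0 by limma on the levels). Tex19.1 fell by 33.4 points (adjusted p = 0.00081) and the transition protein gene Tnp1 fell by 29.3 points (adjusted p = 0.00894) at 2 µM. Tuba3a differed by -23.9 points without passing (adjusted p = 0.0558), and Spag6 had 2.98% in DMSO and 2.59% at 2 µM, so not every testis gene start was methylated in these cells.

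**Figure D4:**
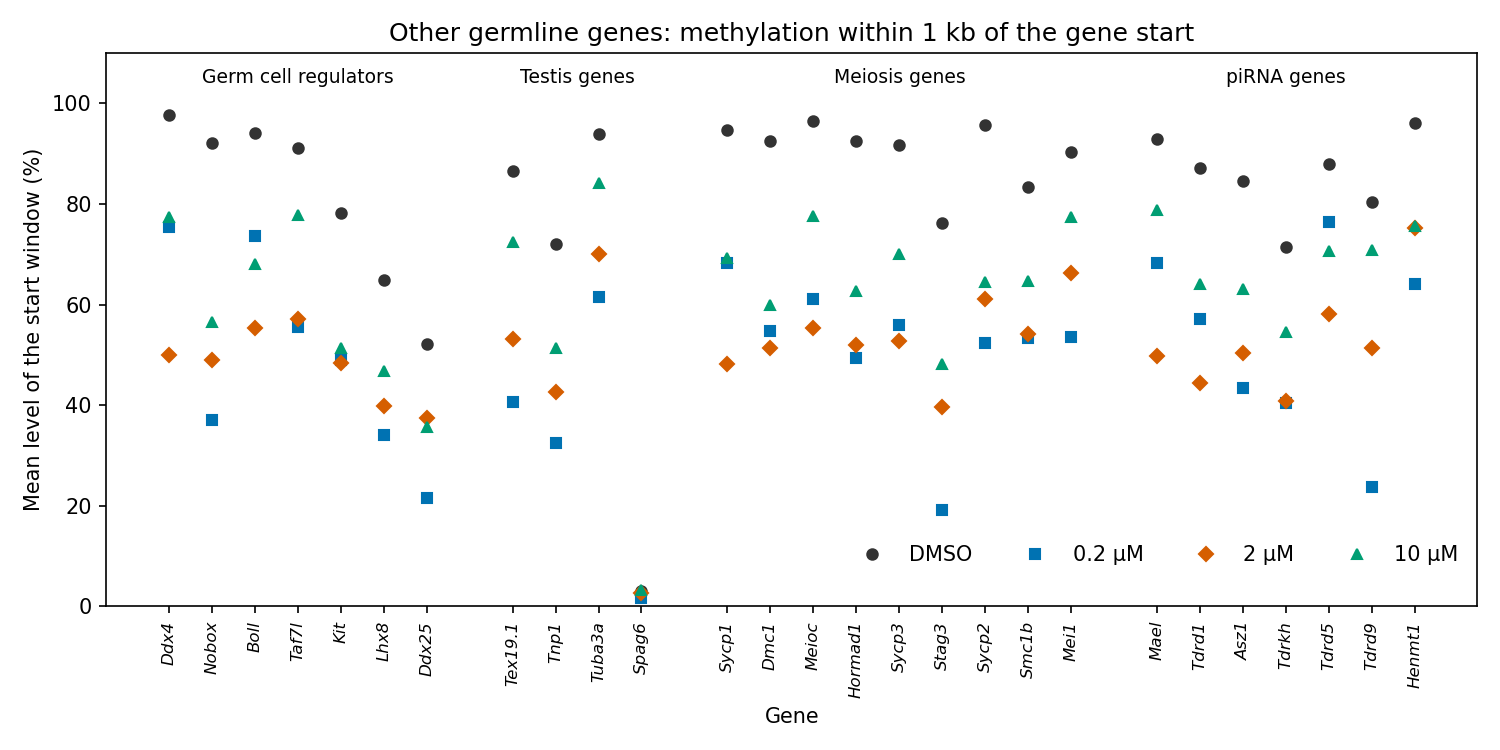
Mean methylation level (percent, vertical axis) of the start windows of the other germline genes tested, in 4 lists, with 1 marker per dose. DMSO is the highest group at every start but Spag6, which is under 4% in all groups.

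Factors tied to repression of germline genes (E2f6, Mga, Max, Setdb1, Dnmt3b and others) had little methylation at their starts. Of 13, 10 were tested, all 10 under 20% in DMSO, with medians of 0.701%, 0.823%, 0.857% and 0.607%. By the binomial test 0 were called against DMSO at any dose, with 0, 1 and 1 at an unadjusted p under 0.05 from the low to the high dose, and limma on the levels called 1, 1 and 0. The gene with the largest mean difference was Setdb1, at 7.57% ± 9.12 in DMSO and 20.1% ± 3.36 at 2 µM (adjusted p = 0.156), with wide spread in DMSO.

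Lineage gene starts were also read, but few were covered. Of 9 B lineage genes, Igll1, Ebf1 and Vpreb1 were read and their highest DMSO level was 0.658%. The median over all 10242 starts was 0.997% in DMSO, so such low levels are common and do not show the cell type. Of 8 T lineage genes Bcl11b was read, at 84.3% in DMSO. RNA was not measured in these libraries, so expression of the 10 genes is not given here.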

How the data were processed

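RRBS libraries of Abl.1 cells (2 with DMSO and 2, 3 and 2 with 0.2, 2 and 10 µM 5-aza-dC) were taken as deposited, 1 table per library. Per the submitters' processing notes the build is mm10, while aligner, methylation caller and read filters were not given in the sources used here. Each deposited line gave a CpG position, methylated and all reads as 1 text entry, and a deposited score, which equalled the methylated fraction times 1000 with 0 lines not matching. The score served only for that check. Left out were 1 to 2 lines per library of another width and 18 to 68 at repeated positions.

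Gene ends came from the RefSeq table of GRCm38.p6, and the strand from its promoter sequences, which covered 17492 of 21887 protein-coding genes. Of 408244 CG pairs in these promoters 62.8% were listed CpGs, and 0 were when positions were shifted by 1 bp. CpGs within 1 kb of a gene end formed a window, and windows needed 10 read calls in every library, which 15644 windows passed.

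The level was methylated over all calls, and a group value is the mean ± SD over libraries. Windows were tested with a binomial model, 1 level per group over all 9 libraries, with calls scaled to an effective number because calls of 1 window are correlated (0.0314 in the class with the lowest coverage, 0.0041 in that with the highest). Dispersion was moderated with limma 3.58.1 in R 4.3.3 and kept at 1 or above. P-values were adjusted by Benjamini-Hochberg over the 15644 windows of a comparison, at a threshold of 0.05. On simulated data, 200 windows were lowered by 1.5 on the log odds scale. The test for the low dose called 109 of them and 1 other window. That for the middle dose called 140 and 2, and that for the high dose 110 and 3. These counts are totals over all simulated windows. Recovery and false calls at the DMSO levels and read depths of the members were not tested separately, so the counts do not give them. Median coverage was 3 to 5 calls per CpG, and the Wilson intervals ignore PCR duplication and reflect counting error alone. In addition, 19 alternatives were run. All 10 genes are named, and of each related list the 2 genes with the largest and the 2 with the smallest change at 2 µM. Genes and lists were chosen with earlier results of these data known.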

Additional observations from a re-analysis of the deposited data

How the results depend on the processing

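Over 19 alternatives (other coverage minimums and window widths, unweighted CpG means, limma on levels, no scaling of calls, the replicate block, each library left out), 235 recomputed counts and medians stayed close to the values above and 30 moved. Many of the 235 are counts that were 0 in every fit, such as members higher than DMSO. A count that went from 7 to 5 was still taken as close, so the 235 do not measure how stable the other counts were. At 0.2 µM against DMSO the count of members that fell was 4 within 250 bp (6 windows left) and 5 to 7 with 1 library left out. At 2 µM it was 4 within 250 bp and 4 to 7 with 1 library left out. At 10 µM, in place of 2, it was 1 within 500 bp, 0 within 250 bp, 1 with unweighted CpG means and 0 to 2 with 1 library left out. The count higher at 10 µM than at 2 µM was 2 with at least 20 calls, 0 within 250 bp, 3 by limma on levels, 2 without scaling and 0 to 2 with 1 library left out. The count higher at 10 µM than at 0.2 µM, 0 above, was 1 with at least 5 CpGs read in every library, 1 within 500 bp, 1 within 250 bp, 2 by limma on levels, 1 with unweighted CpG means, 2 without scaling and 0 to 1 with 1 library left out. The median level was 93.1% in DMSO within 250 bp, and at 10 µM it was 75.5% with at least 5 calls (8 windows), 76.6% within 500 bp, 78.4% within 250 bp and 72.6% with unweighted CpG means. The cause of these shifts was not tested beyond the fewer windows, CpGs or libraries.

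Of the single-gene differences 7 changed sign, none of them called. At 2 µM against 0.2 µM these were Sohlh2 at +2.40 points within 250 bp and +1.64 with unweighted CpG means, Tex101 at -0.732 without 2 µM replicate 2 (up to 7.65 with another library left out) and Slc25a31 at -0.795 with unweighted CpG means. Without 10 µM replicate 1, Sohlh2 at 10 µM was -3.80 points against 2 µM and -6.24 against 0.2 µM (up to 11.5 and 9.09 with another library left out), and within 500 bp it was -1.48 against 0.2 µM.

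Deviations from the group means showed almost no correlation between libraries with the same replicate number (-0.0321 to 0.0138). Noise from thin reads could hide a pairing in such deviations, and in a group of 2 libraries they mirror each other. Whether the numbers pair the samples was therefore not decided. The fit with the replicate block left out 2 µM replicate 3. From the low to the high dose, 7, 6 and 2 members fell in that fit. Tex101 lost its call at the middle dose (limma-moderated test, adjusted p = 0.0622). It had also lost this call when only 2 µM replicate 3 was left out (0.0623), with the same change of -22.3 points. The contrasts between doses kept 0, 1 and 0 calls with the block. Over all 15644 windows the main fit called 593 higher and 67 lower at 2 µM than at 0.2 µM. Leaving out 2 µM replicate 3 alone gave 289 and 42, and the block without that library gave 193 and 32. Windows higher at 10 µM than at 2 µM numbered 679 in the main fit, 442 without that library and 278 with the block.

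Over all alternatives the gene ends called lower than DMSO ranged from 1525 to 6126 at 0.2 µM, 1267 to 4291 at 2 µM and 105 to 931 at 10 µM. Between 2 µM and 0.2 µM, 0 to 1763 were called higher and 0 to 171 lower. At 10 µM, 2 to 1198 were called higher than at 2 µM and 385 to 4142 higher than at 0.2 µM. Depth limits Sohlh1, Tex14 and Dpep3 most, with DMSO libraries of 20 to 32 calls.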
